A study of Mus musculus with 94 samples.

Results

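To compare lamivudine-treated trisomic hippocampus with that of untreated wild-type mice, the expression of LINE-1 (L1) retrotransposons was analyzed in 21 of the 94 RNA-seq libraries of the study, chosen by their labels: 13 hippocampus libraries of treated Ts65Dn mice (TS-t) and 8 of non-treated wild-type mice (WT-nt). Ts65Dn mice, used to model Down syndrome, carry an extra chromosome with parts of MMU16 and MMU17, bred from B6EiC4Sn.BLiA-Ts(1716)65Dn/DnJ females and B6C3F1/OlaHsd hybrid males. WT-nt mice were littermates without it and drank water, and TS-t mice received 3 mg/kg lamivudine, a nucleoside inhibitor of reverse transcriptase, in the drinking water. All mice were males, given as 3 to 4 months old, and the treatment lasted 4 months. Whether that age was at the start of treatment or when tissue was taken is not clear from the sources used here. The comparison therefore differs in genotype and in treatment at once, and an effect of trisomy and an effect of lamivudine cannot be told apart in it. For that reason the levels in treated wild-type (WT-t, 17 libraries) and non-treated trisomic hippocampus (TS-nt, 8 libraries) are given beside those of the elements that differed. The Ts65Dn segment of MMU17 also holds genes that have no counterpart on human chromosome 21, which limits it as a model. The table analyzed holds L1 elements alone, so that neither the tissue label nor the genotype was checked against marker genes.

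L1s are non-LTR retrotransposons that copy themselves through an RNA intermediate and an encoded reverse transcriptase, the kind of enzyme that lamivudine inhibits. Most copies in the mouse genome are truncated or mutated and cannot move, and L1 sequence in RNA is often part of a longer transcript of a host gene. Subfamilies differ in age: L1Md_T, L1Md_A and L1Md_Gf hold the young copies that can still be active in mice, L1Md_F and Lx are older rodent-lineage subfamilies, and L1M subfamilies are remnants shared among mammals. In the names used here the text before _dup is the subfamily and the number after it is the copy.

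The sequence of the 5′ end of L1Md_F2_dup59906 is shown, since this element was 1 of the 2 upregulated in TS-t and lies in an exon of an annotated non-coding transcript. The 300 bases printed are from the GENCODE M21 transcripts of GRCm38, at chr17:3112273-3112572 on the minus strand in Gm21926, a transcribed processed pseudogene. Capitals mark the 275 bases of the L1 copy, of which 42.5% were G or C, and lower case the 25 bases of the exon before it.
L1Md_F2_dup59906: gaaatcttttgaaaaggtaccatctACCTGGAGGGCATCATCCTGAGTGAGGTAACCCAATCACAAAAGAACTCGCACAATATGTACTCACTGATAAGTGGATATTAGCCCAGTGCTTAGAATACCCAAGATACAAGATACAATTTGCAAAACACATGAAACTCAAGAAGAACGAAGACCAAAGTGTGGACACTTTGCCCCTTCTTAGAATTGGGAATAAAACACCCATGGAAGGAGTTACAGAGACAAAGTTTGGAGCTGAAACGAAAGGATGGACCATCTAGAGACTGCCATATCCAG
The exon of Gm21926 covers 758 bases of L1Md_F2_dup59906. Transcripts of 22 other genes aligned to at least 80% of these bases with at least 90% identity, the closest being Vmn1r229 with 91.7%, and none reached 95%. How reads were assigned among similar copies was not tested.

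L1 counts per library were between 223726 and 347160 in TS-t (mean 277755 ± 38500, SD, n = 13) and between 240384 and 300382 in WT-nt (268188 ± 18184, SD, n = 8), a difference within the spread of the libraries (exact two-sided permutation p = 0.52). The number of elements with a count was 40100 ± 12127 in TS-t and 37785 ± 9437 in WT-nt (exact permutation p = 0.649). WT-nt library 1 stood apart from the other WT-nt libraries, with the lowest total, the fewest elements with a count (21505) and the largest share of counts on a single element (8.09%, against 2.17% to 4.48% in the other 7). In TS-t library 10, L1MEd_dup2089, one of the elements with the highest counts, had 131 counts, against 5318 to 17196 in the other TS-t and 5074 to 15023 in the WT-nt libraries. The animal labels of all WT-nt mice begin with 20, and those of TS-t mice with 18 (1 mouse), 19 (4) or 20 (8). What the beginning of the label marks was not stated in the sources used here. Values by label are given beside the calls and for some of the other elements and subfamilies, not for all whose TS-t means by label lay far apart. WT-t libraries also have both kinds of label (14 with 18 or 19 and 3 with 20). Differences between labels within a group were not tested.

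Of the 430083 elements, 214526 had a count in the 21 libraries and 4238 had enough to be tested (edgeR's quasi-likelihood test on the 46 hippocampus libraries, contrast TS-t vs. WT-nt, adjusted p-value below 0.1 by the Benjamini-Hochberg method over all elements tested). Changes were small for most of them. The median log2 fold change was 0.01, 50.8% of elements had a value above 0, and the 5th and 95th percentiles were −0.71 and 0.85, with a median standard error of 0.52. Differentially expressed were 2 elements, 0.0472% of those tested, both upregulated in TS-t. No element was called downregulated at this depth, where the smallest adjusted p-value among elements with lower values in TS-t was 0.178 (edgeR). DESeq2 with the same 4 groups called 6 lower and 12 higher. Its adjusted p-value was 0.0994, just below the threshold, for all 6 lower ones and for many of the higher ones. Before adjustment, 180 elements (4.25%) had a p-value below 0.05, 115 of them higher (2.71%) and 65 lower (1.53%) in TS-t. In 0 of the 4238 elements did all TS-t libraries lie above, or all below, every WT-nt library. In bulk tissue, a difference in the number of cells of a type cannot be told apart from one in RNA per cell.

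**Figure D1:**
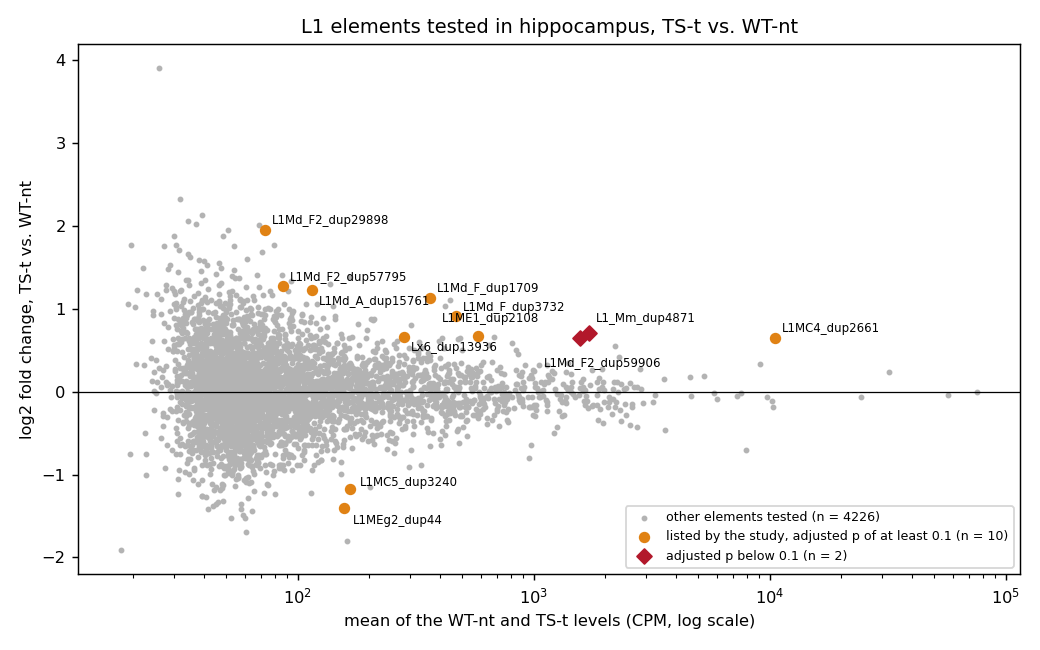
Log2 fold change of TS-t vs. WT-nt (y axis) against the mean of the normalized levels of both groups (CPM, log x axis) for the 4238 L1 elements tested in hippocampus. Red diamonds are the 2 elements with an adjusted p-value below 0.1, orange points the other 10 tested elements that the study lists for this comparison, and grey points the remaining 4226, which spread most at low levels.

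L1Md_F2_dup59906 (chr17:3111781-3112547, GRCm38, minus strand) lies in an exon of Gm21926 on the same strand, in the part of MMU17 that is present in 3 copies in Ts65Dn. Its normalized level, in CPM (counts scaled to the normalized size of the library over the elements tested, not divided by length), was between 1021 and 1489 in WT-nt, with a median of 1220, and between 1383 and 2409 in TS-t, with a median of 2025. In 11 of 13 TS-t libraries it was higher than in any WT-nt library, and the lowest 2 TS-t libraries overlapped the WT-nt range. The means were 1931 ± 336 CPM (SD, n = 13) and 1231 ± 178 CPM (SD, n = 8), a log2 fold change of 0.65 (standard error 0.14, edgeR adjusted p = 0.0244, unadjusted exact permutation p = 9.34e-05). The permutation test used the libraries by which the element was called, so that it adds no separate evidence. TS-nt mice, which did not receive lamivudine, had 1975 ± 324 CPM (n = 8), and treated wild-type mice 1421 ± 312 CPM (n = 17). By label, TS-t libraries beginning with 20 had 1962 ± 312 CPM (n = 8) and those beginning with 18 or 19 had 1882 ± 405 CPM (n = 5). With treated mice limited to labels beginning with 20, the log2 fold change was 0.69 with an adjusted p-value of 0.137. Without WT-nt library 8 the adjusted p-value was 0.143, and without WT-nt library 1 it was 0.0615.

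L1_Mm_dup4871 (chr16:31386704-31387928, minus strand) is intergenic, 7571 bases from 1700007E05Rik, the nearest annotated gene. It lies on MMU16 but outside the distal part that is present in 3 copies, whose first gene is Mrpl39 at 84717576. Its level was between 703 and 1757 CPM in WT-nt (median 1377) and between 1191 and 2987 CPM in TS-t (median 2144). In 10 of 13 TS-t libraries it exceeded every WT-nt library, and 3 TS-t libraries lay within the WT-nt range. The means were 2131 ± 583 CPM (SD, n = 13) and 1300 ± 323 CPM (SD, n = 8), a log2 fold change of 0.71 (standard error 0.15, edgeR adjusted p = 0.0244, unadjusted exact permutation p = 0.00198). Here too the permutation test used the libraries by which the element was called. TS-nt mice had 2120 ± 312 CPM and WT-t mice 1537 ± 322 CPM. By label, L1_Mm_dup4871 had 2545 ± 369 CPM in TS-t libraries beginning with 18 or 19 and 1873 ± 553 CPM in those beginning with 20, while in WT-t the means were 1529 ± 342 and 1576 ± 256 CPM. With treated mice limited to labels beginning with 20 the log2 fold change was 0.55 (adjusted p = 0.56), and with the beginning of the label as a covariate 0.61 (adjusted p = 0.29). Without WT-nt library 5 or 6 its adjusted p-values were 0.135 and 0.276.

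**Figure D2:**
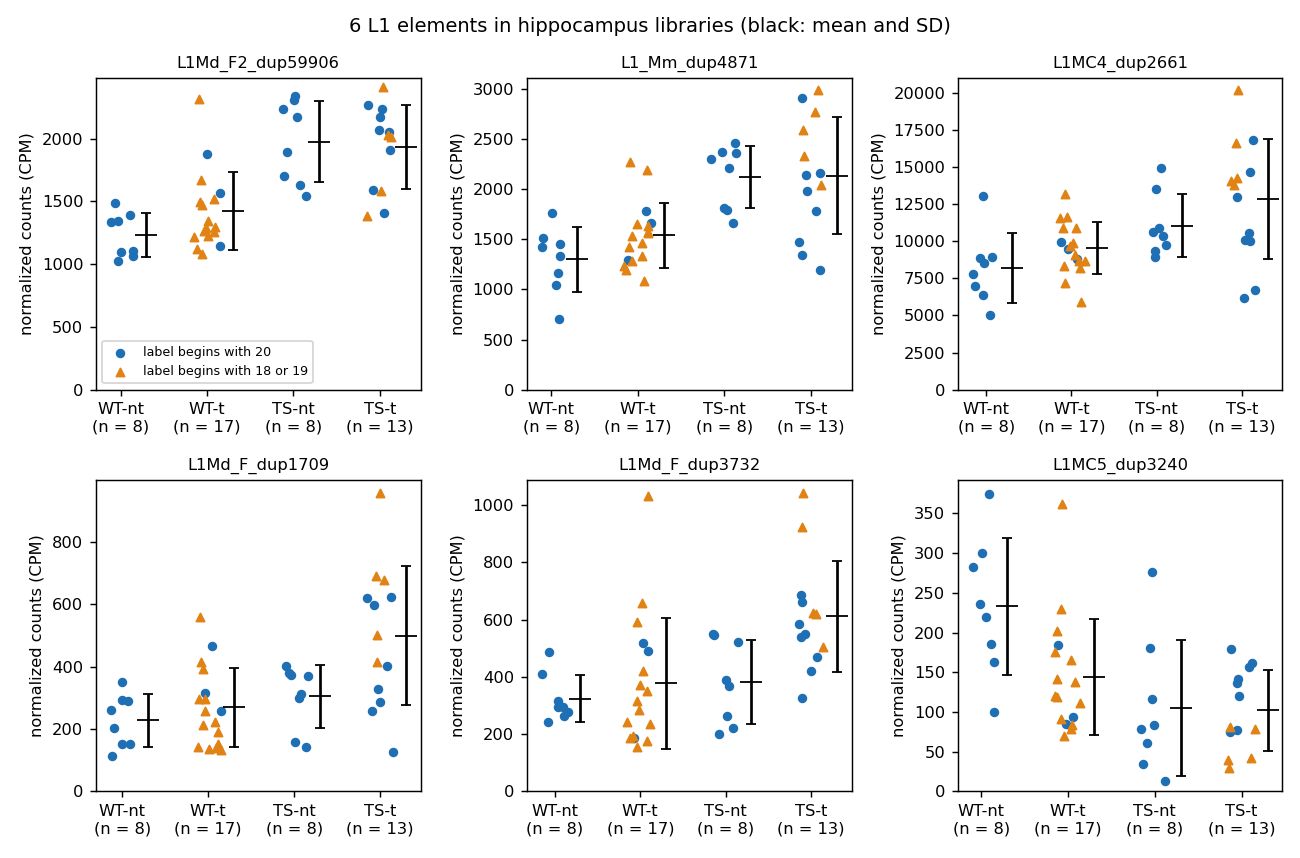
Normalized counts (CPM, y axes from 0) of 6 L1 elements in each hippocampus library of the 4 groups (x axes), with blue circles for animal labels beginning with 20, orange triangles for 18 or 19, and black bars for the mean ± SD. L1Md_F2_dup59906 and L1_Mm_dup4871 had similar means in TS-nt and TS-t, while single TS-t libraries overlapped WT-nt in all 6 panels.

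The study lists 13 elements for this comparison in hippocampus, including both called ones. These were chosen on the same libraries, so that their directions are not independent evidence. Of the 13, 12 passed the filter, 10 with higher and 2 with lower values in TS-t, and all 12 had an unadjusted p-value below 0.05, by which 4.25% of all tested elements were selected. DESeq2 with the 4 groups called 9 of the 13, and 18 of the 2348 elements to which it gave an adjusted p-value (0.767%). With only TS-t and WT-nt in the model it called 6 of the 13, and 9 of 839 elements (1.07%). In the fit with 4 groups, the listed L1ME1_dup2108, L1Md_F_dup3732, L1Md_F2_dup29898, L1MC5_dup3240 and L1MEg2_dup44 had a DESeq2 adjusted p-value of 0.0994, just below the threshold.

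Among the listed elements with higher values, 3 lie in long intergenic non-coding RNAs. L1Md_F_dup1709 (chr8:99525609-99526446) and L1Md_F2_dup29898 (chr8:99526444-99526923) adjoin each other in an intron of the lincRNA A330008L17Rik, on its strand, and share the bases at their common end. L1Md_F_dup1709 was between 113 and 351 CPM in WT-nt (median 233) and between 127 and 957 CPM in TS-t (median 503), above all WT-nt libraries in 9 of 13. Its log2 fold change was 1.13 (standard error 0.27, adjusted p = 0.114). L1Md_F2_dup29898 had 35 counts over 7 of the WT-nt and 227 counts over 12 of the TS-t libraries, a log2 fold change of 1.95 (standard error 0.59, adjusted p = 0.403). In both the groups overlapped. TS-t means of L1Md_F_dup1709 were 649 CPM for labels beginning with 18 or 19 and 406 CPM for 20, and WT-t means 254 and 346 CPM. Without WT-nt library 1 its adjusted p-value was 0.0934.

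L1MC4_dup2661, in an exon of the lincRNA 2900052N01Rik, was between 5064 and 13058 CPM in WT-nt (median 8150) and between 6184 and 20211 CPM in TS-t (median 13772). The highest WT-nt value was that of library 1, and 7 of 13 TS-t libraries exceeded it. The means were 12846 ± 4025 CPM and 8191 ± 2379 CPM, a log2 fold change of 0.65 (standard error 0.16, edgeR adjusted p = 0.127). Without WT-nt library 1 it was 0.78, with an adjusted p-value of 0.0126. TS-nt and WT-t means were 11055 and 9536 CPM. TS-t means by label were 15787 CPM for 18 or 19 and 11008 CPM for 20, against 9564 and 9406 CPM in WT-t. With treated mice limited to labels beginning with 20, the log2 fold change was 0.45 (adjusted p = 1).

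Of the other listed elements with higher values, L1Md_F_dup3732 is the second that lies in a 3-copy segment (chr16:98015457-98016275, minus strand). It lies in an intron of A630089N07Rik and overlaps coding sequence of B230307C23Rik on the opposite strand, so that without strand in the counting the transcripts could not be told apart. It was between 244 and 487 CPM in WT-nt (median 295) and between 325 and 1042 CPM in TS-t (median 583), above every WT-nt library in 10 of 13. The log2 fold change was 0.91 (standard error 0.26, adjusted p = 0.324). TS-nt mice had 382 CPM and WT-t mice 377 CPM. TS-t means by label were 742 CPM for 18 or 19 and 529 CPM for 20, and WT-t means 373 and 399 CPM.

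A pair of listed elements overlaps exons of genes on the opposite strand. L1ME1_dup2108 (chr7:109047222-109047771) lies in Ric3, which encodes a chaperone of nicotinic acetylcholine receptors, and had 448 ± 130 CPM in WT-nt and 714 ± 162 CPM in TS-t (log2 fold change 0.67, standard error 0.20, adjusted p = 0.403). Its means were 745 CPM in TS-nt and 639 CPM in WT-t. Lx6_dup13936 (chr13:78276335-78277974) lies in the antisense transcript A830082K12Rik and had 217 ± 58.6 and 346 ± 77.2 CPM (0.66, standard error 0.23, adjusted p = 0.731). Lx6_dup13936 exceeded all WT-nt libraries in 10 of 13 TS-t libraries, and the TS-t means by label were 346 CPM for 20 and 345 CPM for 18 or 19. At lower levels, L1Md_F2_dup57795 (chr16:16429210-16435351), in an intron of Fgd4, which encodes an activator of the GTPase Cdc42, had 50.5 ± 21.1 and 123 ± 58.5 CPM (log2 fold change 1.27, adjusted p = 0.818). L1Md_A_dup15761 (chr17:33313153-33315127), intergenic and the only listed element of a young subfamily, had 69 ± 52.7 and 161 ± 56.9 CPM (1.22, adjusted p = 0.731). Both lie on MMU16 and MMU17 outside the 3-copy segments.

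Of the 14 elements that the study lists for any comparison and places on MMU16 or MMU17, 7 lie inside and 7 outside the segments present in 3 copies. Inside, 4 were tested, 4 had higher values in TS-t and 2 an unadjusted p-value below 0.05. Outside, 5 were tested, 5 had higher values and 3 passed that limit. Over all elements tested, 50.8% had higher values and 4.25% passed it, but these elements were listed for differences in comparisons that share libraries with this one, so that the counts are a description. Those that passed were all in the list for this comparison. Of the elements tested and listed only elsewhere, 0 of 2 inside and 0 of 2 outside did. The elements inside were L1MC1_dup5016 (log2 fold change 0.64, standard error 0.37) and L1ME3Cz_dup944 (0.34, standard error 0.24). Those outside were L1VL4_dup5634 (1.37, standard error 0.75) and Lx6_dup17183 (0.26, standard error 0.50). For L1MC1_dup5016 the TS-t median was 349 CPM, below the WT-nt median of 371 CPM, and the highest TS-t library had 2088 CPM. With each library left out, its log2 fold change was between 0.20 and 0.71. L1ME3Cz_dup944 had 196 CPM in TS-t libraries with labels beginning with 20 and 323 CPM in the others, against 194 CPM in WT-nt. For labels beginning with 20, L1VL4_dup5634 had 62.1 CPM and Lx6_dup17183 62.7 CPM in TS-t, against 29.9 and 69.5 CPM in WT-nt.

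Among the listed elements with lower values in TS-t, L1MC5_dup3240, intergenic on MMU18, was between 100 and 374 CPM in WT-nt (median 228) and between 29.3 and 179 CPM in TS-t (median 81.3). In 6 of 8 WT-nt libraries it exceeded every TS-t library, and the others overlapped. The log2 fold change was −1.18 (standard error 0.33, adjusted p = 0.324). TS-nt had 105 CPM and WT-t 144 CPM. TS-t means by label were 54.1 ± 24.2 CPM for 18 or 19 and 131 ± 38.2 CPM for 20, and WT-t means 149 and 121 CPM. L1MEg2_dup44 (chr7:89853282-89853618) overlaps an exon with untranslated sequence of Me3, which encodes a mitochondrial malic enzyme, on the opposite strand. It had 228 ± 157 CPM in WT-nt and 86 ± 42.9 CPM in TS-t (−1.40, standard error 0.42, adjusted p = 0.415). Lx8_dup1602 did not pass the filter of the hippocampus fit. It had 391 counts in WT-nt, of which 3 libraries held 113, 123 and 142 and the other 5 between 0 and 7, while the 13 TS-t libraries held between 0 and 8. The difference of this element therefore rests on 3 WT-nt libraries.

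Elements outside the list had smaller p-values than several within it, and edgeR called none of them. Of those with higher values, Lx_dup7185 had 3 counts in 1 WT-nt library and 95 counts in 11 of 13 TS-t libraries (log2 fold change 3.90, standard error 0.97, adjusted p = 0.121), which, with so few counts, depends on the prior of the model. It had 45.3 CPM in WT-t and 63.7 CPM in TS-nt, against 2.5 in WT-nt and 49.4 in TS-t. Among those with lower values, L1Md_F2_dup37213 fell below every WT-nt library in 11 of 13 TS-t libraries. It was between 190 and 437 CPM in WT-nt (median 267) and between 25 and 318 CPM in TS-t (median 132), a log2 fold change of −1.15 (standard error 0.30, adjusted p = 0.178). Its means were 279 CPM in WT-nt, 165 CPM in WT-t, 144 CPM in TS-nt and 125 CPM in TS-t. The next was L1_Mus3_dup27035, with 387 ± 147 CPM in WT-nt and 205 ± 83.8 CPM in TS-t (−0.91, standard error 0.25, adjusted p = 0.252). L1_Mus1_dup8377, L1MEc_dup369, L1MB7_dup6347 and L1M4b_dup171 had log2 fold changes of −1.22, −0.65, −0.62 and −0.43, with edgeR adjusted p-values between 0.403 and 0.567. DESeq2 with the 4 groups called L1Md_F2_dup37213, L1_Mus3_dup27035, L1_Mus1_dup8377 and L1MEc_dup369, each with an adjusted p-value of 0.0994. L1M4b_dup171 had the least spread of them, with 1439 ± 142 CPM in WT-nt and 1070 ± 198 CPM in TS-t.

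Of the 5 elements with the highest counts, among them L1MC4_dup2661, none was called by edgeR, and 3 had log2 fold changes within their standard error. L1ME3Cz_dup549 was between 37050 and 137181 CPM in WT-nt (median 72943) and between 37775 and 114528 CPM in TS-t (median 81816), the log2 fold change being −0.01 (standard error 0.20). L1MEd_dup2089 had −0.04 (standard error 0.34) and L1MEi_dup274 had −0.06 (standard error 0.19). In TS-t these 3 elements were higher for labels beginning with 18 or 19 than for 20, with 96368 and 62543 CPM for L1ME3Cz_dup549, 76679 and 43859 CPM for L1MEd_dup2089, and 30839 and 19667 CPM for L1MEi_dup274. In WT-t the means were 70940 and 59973 CPM, 50326 and 47457 CPM, and 23055 and 20012 CPM. Lx7_dup29483 had 29326 ± 4473 CPM in WT-nt and 34630 ± 6734 CPM in TS-t (0.24, standard error 0.10, unadjusted p = 0.0153, edgeR adjusted p = 0.923).

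Summed over their elements, 132 of 133 subfamilies were tested, and 119 had a log2 fold change within 0.2 of 0 (median standard error 0.08). 2 subfamilies passed the threshold (1.52% of those tested): L1MC4 was upregulated and L1MDa downregulated in TS-t. Both calls were lost in edgeR with only the 2 groups in the model (adjusted p = 0.118 and 0.198), with treated mice limited to labels beginning with 20 (0.361 and 0.765) and without the 5 elements with the highest counts (0.989 and 0.149). Before adjustment, 12 subfamilies had a p-value below 0.05 (9.09%), 7 of them higher (5.3%) and 5 lower (3.79%) in TS-t. L1MC4, an old mammalian subfamily, was between 12025 and 17230 CPM (here of all L1 counts) in WT-nt (median 12886) and between 13919 and 17432 CPM in TS-t (median 15414). The 17230 of WT-nt library 1 was the only WT-nt value above 13919. The log2 fold change was 0.23 (standard error 0.05, adjusted p = 0.0167) with it and 0.29 without it. Without the 5 elements with the highest counts it was 0.00. TS-t means by label were 16466 CPM for 18 or 19 and 14992 CPM for 20, and WT-t means 14672 and 14117 CPM. TS-nt libraries had 15435 ± 1022 CPM, against 15559 ± 1095 CPM in all TS-t and 14574 ± 1277 CPM in all WT-t libraries. Of the L1MC4 counts, 41.1% were those of L1MC4_dup2661, and without the 13 listed elements the log2 fold change was 0.03 (standard error 0.05, adjusted p = 0.948). That setting was added after its values had been seen.

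L1MDa, also old, was between 2203 and 3063 CPM in WT-nt (median 2925) and between 2206 and 2759 CPM in TS-t (median 2538). In 5 of 8 WT-nt libraries it exceeded every TS-t library, and the other 3 overlapped TS-t or lay below it. The log2 fold change was −0.18 (standard error 0.05, adjusted p = 0.0939). Without WT-nt library 1 it was −0.23 (adjusted p = 0.00437), and the call was lost when 12 of the 21 libraries were left out singly, with adjusted p-values up to 0.259. TS-t means by label were 2355 CPM for 18 or 19 and 2558 CPM for 20, and WT-t means 2696 and 2651 CPM. TS-nt libraries had 2715 ± 157 CPM, against 2480 ± 185 CPM in all TS-t and 2814 ± 307 CPM in WT-nt libraries.

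The young subfamilies did not pass the test. The standard errors of L1Md_T and L1Md_A were below the median over subfamilies (0.08), and that of L1Md_Gf was above it. L1Md_T had 24079 ± 1680 CPM in WT-nt and 23594 ± 1823 CPM in TS-t (log2 fold change −0.03, standard error 0.04, adjusted p = 0.968). L1Md_A had 14619 ± 985 and 14600 ± 1153 CPM (0.00, standard error 0.04), and L1Md_Gf 977 ± 116 and 1040 ± 120 CPM (0.09, standard error 0.10). In all 3 the groups overlapped over most of their range. Of the related older subfamilies, L1Md_F2 (0.01, standard error 0.02) and L1Md_F3 (−0.01, standard error 0.04) were as close to 0. L1Md_F had 2460 ± 158 CPM in WT-nt and 2830 ± 284 CPM in TS-t, above all WT-nt libraries in 8 of 13 (0.20, standard error 0.07, adjusted p = 0.226). Without the listed elements, among them L1Md_F_dup1709 and L1Md_F_dup3732, L1Md_F had 0.07 (standard error 0.06).

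Other subfamilies with small p-values had an adjusted p-value of 0.226 each. L1_Mm had a log2 fold change of 0.18 (standard error 0.07), with 24.8% of its counts on L1_Mm_dup4871, and 0.04 without the listed elements. L1VL1 (0.19, standard error 0.07) and L1MA5 (0.13, standard error 0.05) hold no listed element. Their own counts were therefore the same in that fit, where they had 0.21 and 0.16. Lower values were seen for L1M3f (−0.71, standard error 0.28), L1M4b (−0.22, standard error 0.09), Lx5c (−0.07, standard error 0.03) and Lx8b (−0.06, standard error 0.02). Of these, L1M3f is small, with 243 counts in WT-nt and 248 in TS-t.

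**Figure D3:**
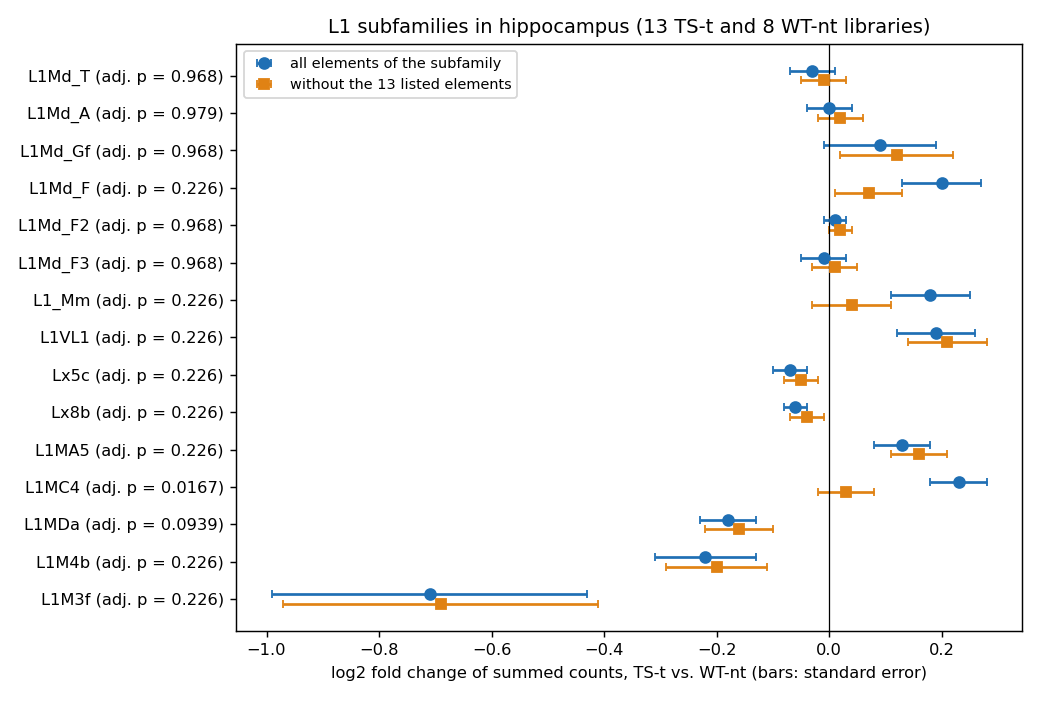
Log2 fold change of summed counts, TS-t vs. WT-nt (x axis), of 15 L1 subfamilies (y axis, with the adjusted p-value of the whole subfamily), as points with bars of 1 standard error, for all elements (blue circles) and without the 13 listed elements (orange squares). Without them L1MC4 moved from 0.23 to 0.03, L1Md_F from 0.20 to 0.07 and L1_Mm from 0.18 to 0.04, while the other subfamilies moved less.

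The composition of L1 expression was compared as the share of 15 classes of subfamilies, grouped by name, in the L1 counts of a library. The young L1Md_T, L1Md_A and L1Md_Gf together held 3.95% ± 0.223 of counts in WT-nt and 3.95% ± 0.265 in TS-t (exact permutation p = 0.998). The largest class, L1ME, held 17.4% ± 3.4 and 16.8% ± 2.46 (exact permutation p = 0.667), and its highest value, 25%, was that of WT-nt library 1. Lx8, Lx9 and Lx10 held 12.6% ± 0.726 and 12.5% ± 0.627. No class differed beyond its spread, the smallest adjusted p-value over the 15 being 0.939 (exact two-sided permutation tests). The class of L1Md_F, L1Md_F2 and L1Md_F3 had the largest percentage of tested elements at an unadjusted p-value below 0.05, 6.36%, with 19 higher and 11 lower of 472, against 4.25% over all elements.

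**Figure D4:**
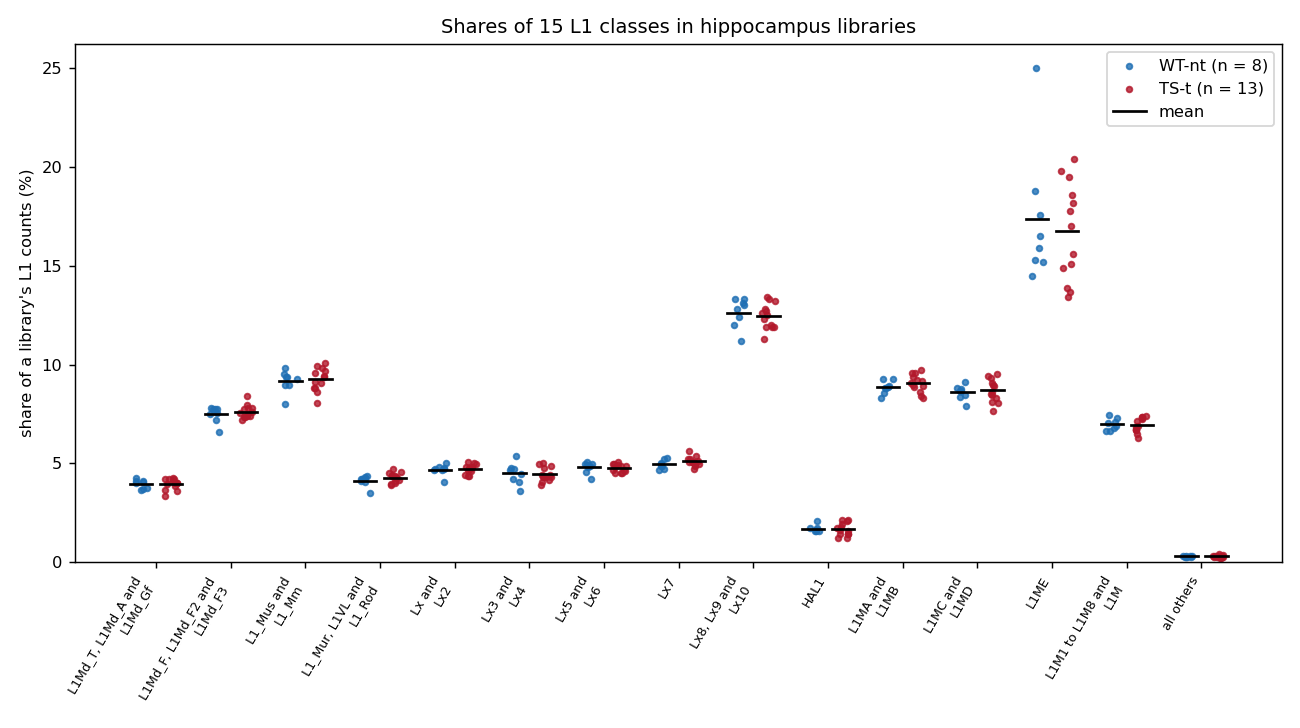
Share of a library's L1 counts (%, y axis from 0) held by each of 15 classes of L1 subfamilies (x axis) in 8 WT-nt (blue) and 13 TS-t (red) hippocampus libraries, with black lines for the means. The groups overlapped in all classes, and the highest L1ME share, 25%, was that of a WT-nt library.

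The difference between TS-t and WT-nt in hippocampus was then compared with that in the cortex of the study in a single model of the 94 libraries. Of these, 92 were pairs of tissues from the same mouse, which this model did not take into account. The log2 fold change of L1Md_F2_dup59906 in cortex was 0.51 (standard error 0.23). The tissues differed by 0.16 (standard error 0.32, adjusted p = 1). For L1_Mm_dup4871 the log2 fold change in cortex was 0.64 (standard error 0.22), with a difference of 0.09 (standard error 0.31, adjusted p = 1), and for L1MC4_dup2661 0.53 (standard error 0.18), with a difference of 0.13 (standard error 0.26). For these 3 elements the tissues did not differ beyond the error, which was at least as large as the difference. In this model none of the 3 passed the threshold within hippocampus or within cortex. The hippocampus log2 fold change was here 0.67 (standard error 0.24) for L1Md_F2_dup59906. It was 0.73 (standard error 0.23, edgeR adjusted p = 0.649) for L1_Mm_dup4871 and 0.66 (standard error 0.19, edgeR adjusted p = 0.464) for L1MC4_dup2661. In cortex the sign was opposite to hippocampus for the listed L1Md_A_dup15761 (−0.33), L1Md_F2_dup57795 (−0.25), L1MC5_dup3240 (0.27) and Lx8_dup1602 (0.44, standard errors 0.41 to 0.81). It was the same for L1Md_F_dup1709 (1.18), L1Md_F_dup3732 (0.69), Lx6_dup13936 (0.47), L1Md_F2_dup29898 (0.31), L1MEg2_dup44 (−0.26) and L1ME1_dup2108 (0.15, standard errors 0.26 to 0.56). None of these passed the threshold for a difference between tissues. Within hippocampus, this model called Lx8_dup1602 (log2 fold change −4.04, standard error 0.84, edgeR adjusted p = 0.0228), whose WT-nt counts lie mostly in 3 libraries. Of 7551 elements tested for a difference between tissues, 1 passed the threshold (0.0132%), and 112 had an unadjusted p-value below 0.05 (1.48%). With the mouse as a replicate block, 0 elements passed (edgeR, 125 at an unadjusted p-value below 0.05). The tissue differences were then 0.05 for L1Md_F2_dup59906, −0.04 for L1_Mm_dup4871 and 0.06 for L1MC4_dup2661.

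Each library was left out in turn to see how far a call rested on 1 library. L1Md_F2_dup59906 was called in 20 of the 21 fits, with a log2 fold change between 0.61 and 0.70, and L1_Mm_dup4871 in 19 of 21, with 0.62 to 0.79. L1MC4 was called in 19 of 21 and not without WT-nt library 6 (adjusted p = 0.145) or 7 (adjusted p = 0.114). L1MDa was called in 9 of 21, and L1MC4_dup2661, which was not called with all libraries, in 3 of 21.

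**Figure D5:**
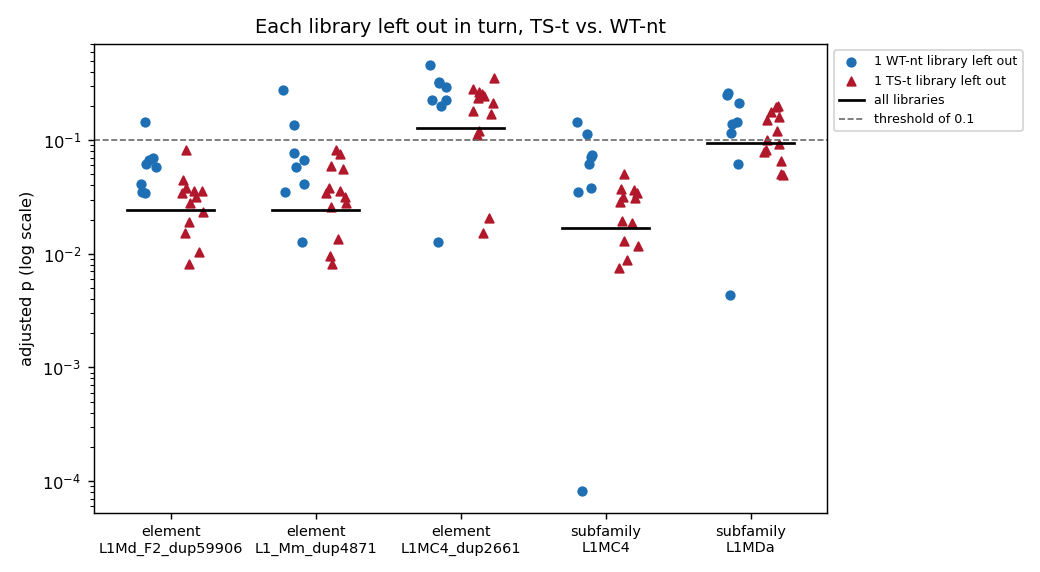
Adjusted p-value (log y axis) of 3 elements and 2 subfamilies (x axis) with 1 WT-nt (blue circles) or 1 TS-t library (red triangles) left out, with black lines for all libraries and a dashed line for the threshold of 0.1. L1Md_F2_dup59906 stayed below the threshold in 20 of 21 fits and L1MDa in 9 of 21.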

How the data were processed

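Total RNA was sequenced from ribosome-depleted stranded libraries, each labelled with a single animal. Trimmomatic 0.38 was used by the authors for trimming and HISAT2 2.1.0 for alignment to GRCm38/mm10 (at most 5 alignments of a read), after which reads were assigned to L1 copies with Telescope, which places a read with several alignments on the most probable copy. The deposited values are raw counts per element, whole numbers without normalization. Whether strand was used in counting is not clear from the sources used here. The methods describe pooling of samples within a condition after RNA extraction, and whether the sequenced libraries were such pools is not clear. If they were, the spread given is that of pools.

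Elements were kept by the default filterByExpr filter of edgeR (minimum count 10, minimum total 15), and counts were scaled with TMM factors and tested with edgeR 4.0.16 (estimateDisp, glmQLFit and glmQLFTest with robust fitting) in R 4.3.3, with the 4 hippocampus groups in 1 model and an adjusted p-value threshold of 0.1. The biological coefficient of variation was 0.622 for elements and 0.154 for subfamilies. Single values were compared with exact two-sided permutation tests over all 203490 splits of 13 and 8 libraries (Python 3.11.15, scipy 1.17.1). P-values set the difference between groups against the spread between libraries. DESeq2 1.42.0, other normalizations, filters, samples and thresholds were alternatives. In simulated counts for this comparison, over 4238 elements, edgeR recovered 68% of 4-fold and 17.5% of 2-fold changes, with 12 and 2 wrong calls. DESeq2 recovered 73% and 24.5% of them, with more wrong calls, 24 and 12. No pair of libraries of a group agreed within counting noise.

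Elements named were those listed by the study for this comparison, those called, the 8 with the smallest p-values in each direction, the 5 with the highest CPM, and listed elements on MMU16 and MMU17. Subfamilies named were L1Md_T, L1Md_A, L1Md_Gf, L1Md_F, L1Md_F2, L1Md_F3, those called and the 5 with the smallest p-values in each direction. The groups, lists and classes were chosen with earlier results of these data known. Positions were those listed with the elements, compared with GENCODE M21, and the sequence shown was read from its transcripts. Another sequence is not reported here. No genome was used here.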

Additional observations from a re-analysis of the deposited data

Results flagged for a closer look

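Among the 50 quantities for which the 8 WT-nt libraries were examined for a library far from the others (the gap to its nearest neighbour as a share of the range), 10 stood out, where chance gives about 1 in 20. WT-nt library 1 accounted for 7 of them. It was highest for the subfamily L1MC4 (17230 CPM against 12025 to 13487 in the others, gap 0.719 of the range) and for the L1ME share of counts (25% against 14.5% to 18.8%, gap 0.594). It was lowest for the subfamily Lx8b (18745 CPM against 20334 to 21442, gap 0.589) and for the shares of L1Md_F, L1Md_F2 and L1Md_F3 (6.56% against 7.21% to 7.79%, gap 0.527), of L1_Mus and L1_Mm (8.01% against 8.97% to 9.81%, gap 0.533), of L1_Mur, L1VL and L1_Rod (3.5% against 4.07% to 4.35%, gap 0.669), and of Lx and Lx2 (4.06% against 4.64% to 5.02%, gap 0.599). Shares of a library add up to its whole, so that these flags are not independent.

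The HAL1 share was highest in WT-nt library 6 (2.1% against 1.58% to 1.71%, gap 0.738). The element L1Md_F2_dup57795 was lowest in WT-nt library 7 (6.86 CPM against 47.1 to 80.1, gap 0.55). Lx_dup7185 was listed at 0 in 7 WT-nt libraries and had 20 CPM in library 2, the whole of its range (gap 1). With 7 libraries at 0 this gap is set by the floor, so that the rate of 1 in 20 does not apply to it. The element was also named for its small p-value, which rests on its near absence in WT-nt.

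The element L1_Mus1_dup3444 had a difference between the tissues in the change from WT-nt to TS-t, with a log2 value of 10.51 (standard error 2.16, edgeR adjusted p = 0.0311), and was named after its values were seen. It had a count in 3 of 13 TS-t and 0 of 8 WT-nt hippocampus libraries (64 and 0 counts), and in 0 of 13 TS-t and 2 of 9 WT-nt cortex libraries (0 and 37 counts). These fitted values depend on the prior of the model, and with the mouse as a replicate block the adjusted p-value was 1.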

How the results depend on the processing

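The 2 element calls became 18 with DESeq2 and 4 groups, 9 with DESeq2 and 2 groups, and 18 with DESeq2, 2 groups and every element of at least 10 counts, a setting chosen after seeing the data. With edgeR they became 16964 of 126067 elements tested with a minimum of 10 counts in total (13.5%) and 18122 of 270853 with no filter (6.69%). In these 2 settings, 76.4% and 83.2% of the calls had counts in at most 3 of the 21 libraries. The 2 element calls became 25 at p below 0.05 before adjustment where the log2 fold change was also 1.5 or more in size, 0 with treated mice whose labels begin with 20, 1 with the beginning of the label as a covariate, and between 1 and 4 with each library left out. The 2 subfamily calls became 1 with DESeq2 size factors, 1 without TMM factors, 1 with no filter, 0 with only the 2 groups, 0 with labels beginning with 20, 0 without the 5 most abundant elements, 0 without the 13 listed elements (chosen after seeing the data), and between 0 and 4 with each library left out. The causes of these changes were not tested. DESeq2 size factors, only the 2 groups in edgeR and an adjusted p-value below 0.05 each left 2 element calls, and no class share was called under any alternative (smallest adjusted p = 0.317).

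Values near 0 that were not called changed sign. L1ME3Cz_dup549 had 0.02 with DESeq2 and 4 groups and with DESeq2 size factors, 0.01 with DESeq2 and 2 groups under either filter, 0.07 with at least 10 counts, 0.05 with no filter, and −0.11 to 0.17 with each library left out. L1MEd_dup2089 had 0.00 and L1MEi_dup274 0.02 with at least 10 counts, and L1MEi_dup274 had 0.00 with no filter. With each library left out they had −0.17 to 0.15 and −0.16 to 0.12. Lx6_dup17183 had −0.13 with labels beginning with 20. L1Md_A had 0.00 with DESeq2 and with its size factors, 0.01 without TMM factors, 0.02 without the listed elements, and −0.03 to 0.02 with each library left out. L1Md_F3 had 0.00 without TMM factors, 0.01 without the listed elements, and −0.04 to 0.01 with each library left out, where L1Md_F2 had −0.01 to 0.01.

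No paired analysis was possible for TS-t vs. WT-nt because the mice of these groups are different and their labels share no numbers. For the tissue difference, the 1 call became 0 with the mouse as a replicate block (92 libraries). The test missed most simulated 2-fold changes of single elements, at this depth, spread and number of libraries.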
